A study of Homo sapiens with 6 samples.

Results

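The enzymes described here make and break down N-acylethanolamines and 2-arachidonoylglycerol, the lipid messengers that include the endocannabinoids. They comprise 10 genes, taken as all probe sets whose platform annotation gave only that gene symbol, and these were 26 of the 54613 probe sets on the array that are not controls. The group was chosen by function around NAPEPLD, and NAPEPLD itself was selected on its value in the comparison below: ranked by its brightest probe set, it was number 10 by smallest p among 6397 genes that lay higher under TET siRNA. Values of that comparison are therefore a description of the members. Counts of members past a threshold are printed only beside the share of all probe sets past it, and support nothing.

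RNA came from Flp-In T-REx 293 cells, a HEK293 derivative from human embryonic kidney that is built for inserting a transgene at a fixed site, as 3 clones that all carried an inducible GFP transgene left without induction. In the TET siRNA group, each clone received siRNAs to TET1, TET2 and TET3 together. In the non-targeting siRNA group, the same 3 clones received a pool of siRNAs without a target. RNA was taken after 96 h, giving 3 one-colour Affymetrix arrays in each group, and each clone number pairs a TET siRNA array with a non-targeting siRNA array. The arrays are all of clones of a single line, so they show the spread between these clones and nothing wider. Whole cultures were measured, in which a change in RNA per cell and a change in the share of cells that express a gene cannot be told apart.

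Every array had the same trimmed mean signal of 1000.1. TET1 had 448, 621 and 685 in clones 1, 2 and 3 under TET siRNA, against 3073, 3123 and 3470.2 under non-targeting siRNA, which left 17.9% of the control level. TET3 kept 42.9% and TET2 46.8%. In limma without a clone term the adjusted p was 0.0023 for TET1, 0.0678 for TET3 and 0.198 for TET2. Only that of TET1 was under 0.05. With the clone number as a replicate block in limma, all were under it, at 3.1e-06 for TET1, 0.0021 for TET3 and 0.0047 for TET2. Each of these genes was lower in all 3 clones. All 7 markers listed for the HEK293 line lay above the brightness limit for testing (a geometric mean signal of 117), and 10 of 12 markers of other cell types lay below it. The 2 exceptions were COL1A1 at 981 ± 107 and 1153 ± 163, and PECAM1 at 158 ± 15.9 and 178 ± 27.9, under TET siRNA and non-targeting siRNA in that order (SD, n = 3 each).

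N-acylethanolamines such as anandamide and palmitoylethanolamide are cut from N-acylated phosphatidylethanolamine in the membrane. NAPEPLD, a phospholipase D of the metallo-hydrolase type, releases them in a single step. ABHD4, an alpha/beta-hydrolase, removes acyl chains from the same precursor, and GDE1, a glycerophosphodiesterase, frees the N-acylethanolamine from the product. The amidases FAAH and FAAH2 and the lysosomal acid amidase NAAA end the signal. The second endocannabinoid, 2-arachidonoylglycerol, is made by the diacylglycerol lipases DAGLA and DAGLB and hydrolysed mainly by MGLL, with a smaller part played by ABHD6. In the nervous system both messengers act on the cannabinoid receptors at synapses.

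TET proteins oxidise methylated cytosine, which in human DNA lies almost entirely in the dinucleotide CG. The CG content around start sites is given for this reason, and a link between it and the RNA values was not tested. RefSeq windows from 250 bases before to 50 bases after a start site (GRCh38.p14) were at hand for 6 of the 10 genes, namely NAPEPLD, ABHD4, FAAH, FAAH2, DAGLB and ABHD6, and not for GDE1, NAAA, MGLL and DAGLA. NAPEPLD had 3 such windows, and 4 windows are printed below with every CG in capitals: the NAPEPLD windows with the most and the fewest CG, that of ABHD4, and the FAAH2 window with the most CG.
NAPEPLD, middle start site, chr7:103149273-103149572, minus strand: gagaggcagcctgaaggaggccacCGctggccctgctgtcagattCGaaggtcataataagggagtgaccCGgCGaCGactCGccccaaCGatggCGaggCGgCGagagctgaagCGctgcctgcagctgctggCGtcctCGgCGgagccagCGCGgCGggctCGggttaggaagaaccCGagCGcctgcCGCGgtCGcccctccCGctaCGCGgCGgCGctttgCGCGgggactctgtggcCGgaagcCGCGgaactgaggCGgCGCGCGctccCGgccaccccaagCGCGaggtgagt
NAPEPLD, most upstream start site, chr7:103149952-103150251, minus strand: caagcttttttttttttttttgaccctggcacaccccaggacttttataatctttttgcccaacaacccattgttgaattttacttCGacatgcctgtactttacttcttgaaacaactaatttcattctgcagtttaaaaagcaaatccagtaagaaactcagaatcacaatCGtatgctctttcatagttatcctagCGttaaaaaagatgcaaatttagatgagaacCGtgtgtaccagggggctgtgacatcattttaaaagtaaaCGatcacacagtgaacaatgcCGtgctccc
ABHD4, chr14:22598050-22598349, plus strand: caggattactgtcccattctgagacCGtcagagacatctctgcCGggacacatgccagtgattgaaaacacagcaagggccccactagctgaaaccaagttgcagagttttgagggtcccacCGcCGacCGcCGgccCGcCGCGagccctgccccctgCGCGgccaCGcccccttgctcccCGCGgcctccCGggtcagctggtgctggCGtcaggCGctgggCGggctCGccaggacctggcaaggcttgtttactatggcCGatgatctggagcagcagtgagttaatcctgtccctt
FAAH2, chrX:57286604-57286903, plus strand: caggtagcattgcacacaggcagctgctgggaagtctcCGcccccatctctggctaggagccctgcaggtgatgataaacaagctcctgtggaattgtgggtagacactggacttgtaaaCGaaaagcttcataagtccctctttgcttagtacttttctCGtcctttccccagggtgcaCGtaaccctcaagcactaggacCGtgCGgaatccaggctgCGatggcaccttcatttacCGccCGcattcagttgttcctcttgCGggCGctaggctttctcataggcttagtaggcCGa

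The NAPEPLD window at the middle start site held 40 CG, a count reached by 7.61% of the 35116 windows in the table, where the median was 14. The most upstream NAPEPLD window held 6 CG, and 36.8% of windows held as few or fewer. The most downstream NAPEPLD window, which overlaps the middle one, held 36. ABHD6 had 39 CG, FAAH 32, DAGLB 29 and ABHD4 20, while the 3 FAAH2 windows had 12, 4 and 4. The motif counted was CG, which reads the same on both strands, and 96% of all windows held at least 1. The arrays measure RNA and not methylation, and which start site these cells use was not measured.

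The 4 largest differences among the tested member probe sets were all of NAPEPLD, the gene selected on this comparison, so this order is a description. All 5 of its probe sets gave a higher mean signal under TET siRNA, and the signal was higher in 15 of 15 pairs of arrays from the same clone. The differences were 0.34 to 0.88 on the log2 scale, or 1.27 to 1.84-fold. Averaged over the 5 probe sets, they were 0.69, 0.51 and 0.70 in clones 1, 2 and 3. The 5 probe sets read a single gene in the same RNA and are not replicates of each other.

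At the brightest NAPEPLD probe set, 226041_at (Entrez gene 222236), the signal was 1800.5, 1289 and 1476 in clones 1, 2 and 3 under TET siRNA, against 1011, 878 and 855 under non-targeting siRNA. The lowest TET siRNA array stood above the highest non-targeting siRNA array. The group means were 1522 ± 259 and 914 ± 84.2 (SD, n = 3 each), a log2 difference of 0.73 (SE 0.15, 95% interval 0.38 to 1.07). Clone 1 was the highest of its group in both treatments at this probe set.

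Probe set 238722_x_at, whose suffix marks probes that can also bind other transcripts, gave 1188, 1071 and 1062 under TET siRNA and 671, 604 and 534 under non-targeting siRNA. The groups again did not overlap, and the difference of 0.88 (SE 0.14, 95% interval 0.57 to 1.19) was the largest of the 5 and the most even, with 0.82, 0.82 and 0.99 in clones 1, 2 and 3. Probe set 242229_at gave 560.3, 535 and 561 under TET siRNA and 424, 338 and 268 under non-targeting siRNA. Here the TET siRNA arrays were nearly level while the non-targeting siRNA arrays spread, so the log2 differences of 0.40, 0.66 and 1.06 in clones 1, 2 and 3 followed the controls.

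The dimmest NAPEPLD probe set, 233539_at, had 243, 204 and 200.3 under TET siRNA and 148, 156 and 145 under non-targeting siRNA, a log2 difference of 0.52 (SE 0.21) without overlap. At 242635_s_at the signal was 758, 517 and 598 under TET siRNA and 468, 477 and 518 under non-targeting siRNA. This was the only NAPEPLD probe set whose groups overlapped, since clone 2 under TET siRNA lay just below clone 3 under non-targeting siRNA. Its log2 difference of 0.34 (SE 0.17, 95% interval -0.05 to 0.73) came mostly from clone 1, with 0.70 there against 0.12 and 0.21 in clones 2 and 3, and it was 0.16 without clone 1. Across the 6 arrays the log2 signals of the 5 probe sets correlated with each other at 0.57 to 0.96 (Pearson's r), and these pairs share arrays, scaling and treatment.

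**Figure D1:**
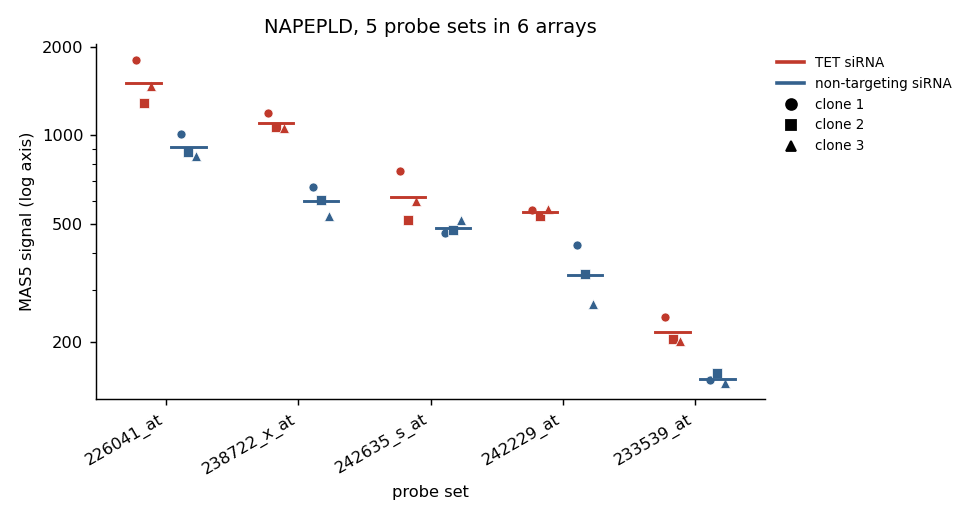
MAS5 signal (vertical, log axis) of the 5 NAPEPLD probe sets in each array, TET siRNA in red on the left and non-targeting siRNA in blue on the right of each pair, with marker shapes for clones and a line at the geometric mean of 3 arrays. Red points lie above all blue points at 4 probe sets and overlap at 242635_s_at, where clone 2 under TET siRNA had 517 and clone 3 under non-targeting siRNA 518.

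Across all tested probe sets, an adjusted p under 0.05 in limma without a clone term was reached by 0.0146% (4 of 27306) and by 0 of the 22 member probe sets bright enough to be tested. At an unadjusted p under 0.05 the same limma fit counted 4 of the 22, all of NAPEPLD, where 6.61% of all tested probe sets had such a p. With the clone number as a replicate block in limma, 2 member probe sets passed as higher, 226041_at and 238722_x_at of NAPEPLD, against 0.385% of all tested probe sets, and these were the only members to pass. With plain empirical Bayes in place of the trended and robust form, the blocked limma count was 0 of 22. That fit called 0 of all 27306 tested probe sets. The groups did not overlap, with TET siRNA higher, at 4 of the 22, all of NAPEPLD, against 7.21% of all tested probe sets. As NAPEPLD was selected on this comparison, nothing is read from these counts.

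The other enzymes that make N-acylethanolamines gave smaller or less even differences. ABHD4 (Entrez gene 63874) had a signal at 218581_at of 723, 1548 and 998 in clones 1, 2 and 3 under TET siRNA, against 699, 728 and 880.3 under non-targeting siRNA. Clone 2 under TET siRNA stood far above the other arrays, and the rest overlapped. The log2 difference was 0.44 (SE 0.25, 95% interval -0.14 to 1.01) over 3 clones and 0.11 without clone 2. The second ABHD4 probe set was below the brightness limit, with a signal of 116 or less on every array.

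GDE1 (Entrez gene 51573) was level at both of its probe sets. At 226214_at it had 4535, 4705 and 4416 under TET siRNA and 4122, 4636 and 4629 under non-targeting siRNA, and at 202593_s_at 3289, 3406 and 3299 against 3377, 3099 and 3314. The log2 differences were 0.03 at each (SE 0.09 at each), with 95% intervals of -0.17 to 0.23 and -0.16 to 0.22. These are the narrowest intervals in the group.

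Among the enzymes that end N-acylethanolamine signals, FAAH (Entrez gene 2166) was dim, with 208, 147 and 135 in clones 1, 2 and 3 under TET siRNA, against 197, 150 and 192 under non-targeting siRNA at its only probe set. Its log2 difference was -0.15 (SE 0.26, 95% interval -0.74 to 0.44), and without clone 3 it was 0.03, on the other side of 0. FAAH2 (Entrez gene 158584) had 195, 262 and 327 under TET siRNA and 175, 318 and 192 under non-targeting siRNA. The clones disagreed, with log2 differences of 0.16, -0.28 and 0.77, and the mean of 0.22 (SE 0.29) turned to -0.06 without clone 3. The 95% interval of FAAH2 ran from -0.45 to 0.89.

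NAAA (Entrez gene 27163) was brighter and differed little. Its brightest probe set, 227135_at, gave 1448, 1995 and 1552 under TET siRNA and 1608, 1854 and 1733 under non-targeting siRNA, with the groups overlapping fully. The log2 difference there was -0.07 (SE 0.14), and the other 3 NAAA probe sets had -0.13, -0.11 and 0.06. Clone 1 under TET siRNA was the lowest of the 6 arrays at each of the 4 probe sets, with 1448 at 227135_at, 664 at 214765_s_at, 163 at 215178_x_at and 145 at 232072_at.

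Of the diacylglycerol lipases, DAGLA (Entrez gene 747) had a single probe set, which lay below the brightness limit. Its signal was 22.5, 93.6 and 56.6 in clones 1, 2 and 3 under TET siRNA, against 98.8, 118 and 120.4 under non-targeting siRNA. Every clone was lower under TET siRNA and the groups did not overlap, with a log2 difference of -1.19 (SE 0.54, 95% interval -2.41 to 0.04, from the fit over all probe sets). The value was -0.62 without clone 1 under TET siRNA, -0.71 without clone 1 in both groups and -1.61 without clone 2 in both groups. It was -0.74 with a pseudocount of 36.1 added to every signal. MAS5 values this dim vary widely between arrays. The probe set was tested only in the alternatives that kept dim probe sets, and did not pass there.

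DAGLB (Entrez gene 221955) was measured by 4 probe sets that did not point the same way. The brightest, 225832_s_at, had 332, 289 and 397 under TET siRNA and 265, 284 and 346 under non-targeting siRNA, a log2 difference of 0.18 (SE 0.20) with overlapping groups. The next 2 gave 0.06 (SE 0.24) and -0.21 (SE 0.27), and the dimmest, below the brightness limit, -0.52 (SE 0.39). The last of these had -0.25, -1.60 and 0.29 in clones 1, 2 and 3, and its value was 0.02 without clone 2. Averaged over the 3 tested probe sets, DAGLB differed by 0.01.

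MGLL (Entrez gene 11343), the main hydrolase of 2-arachidonoylglycerol, was read by a pair of probe sets that differed from each other. At 211026_s_at the signal was 237, 268 and 290.2 in clones 1, 2 and 3 under TET siRNA and 193, 348 and 281 under non-targeting siRNA, a log2 difference of -0.01 (SE 0.25). At 225102_at it was 91.5, 315 and 248 under TET siRNA and 199.5, 292 and 333 under non-targeting siRNA. Clone 1 was the lowest of each group there, and its TET siRNA array stood apart. The log2 difference of -0.48 (SE 0.44, 95% interval -1.48 to 0.52) became 0.06 without that array and -0.16 without clone 1 in both groups.

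ABHD6 (Entrez gene 57406) showed no difference beyond its spread at 3 tested probe sets. At the brightest, 45288_at, the signal was 593, 569 and 651 under TET siRNA and 608, 610.4 and 664 under non-targeting siRNA. Each clone was slightly lower under TET siRNA, by 0.04, 0.10 and 0.03 on the log2 scale, and the mean difference was -0.05 (SE 0.13, 95% interval -0.36 to 0.25). The other tested probe sets gave 0.07 and -0.08. The remaining one had signals of 2.85 to 6.50 under TET siRNA and 3.81 to 8.29 under non-targeting siRNA, below the brightness limit for testing.

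**Figure D2:**
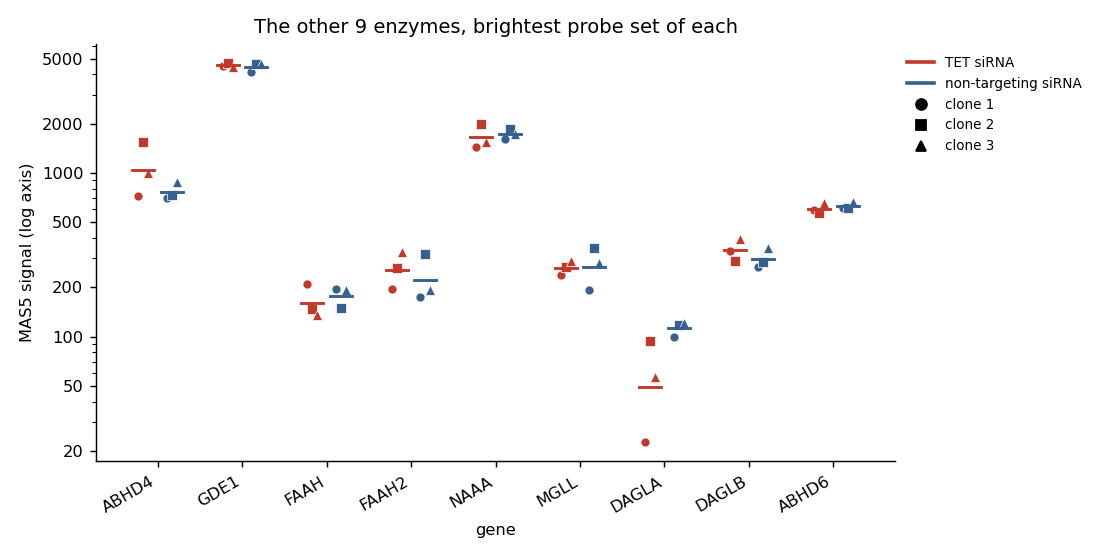
MAS5 signal (vertical, log axis) of the brightest probe set of each of the 9 enzymes other than NAPEPLD, TET siRNA in red on the left and non-targeting siRNA in blue on the right of each pair, with marker shapes for clones and a line at the geometric mean of 3 arrays. The groups overlap for 8 of the genes, and those of DAGLA, at signals of 22.5 to 120.4, do not. In either direction, the groups did not overlap at 3471 of the 27306 tested probe sets, which do not include that of DAGLA.

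Over all 22 tested member probe sets, 13 had a positive difference and 9 a negative one, with a median of 0.04 on the log2 scale, beside 54.4% positive and a median of 0.02 over all 27306. The 17 tested probe sets of the genes other than NAPEPLD had 8 positive and 9 negative differences and a median of -0.01. All 3 clones were higher at 7 of the 22 (31.8%), namely the 5 of NAPEPLD, 218581_at of ABHD4 and 225832_s_at of DAGLB, where 20.5% of all tested probe sets had 3 clones higher. Without NAPEPLD, which was selected on this comparison, the share was 2 of 17 (11.8%). All 3 clones were lower at 45288_at of ABHD6 (4.55% of the 22), where 15.7% of all tested probe sets had 3 clones lower. The 4 members below the brightness limit were 1 probe set each of ABHD4, DAGLA, DAGLB and ABHD6.

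**Figure D3:**
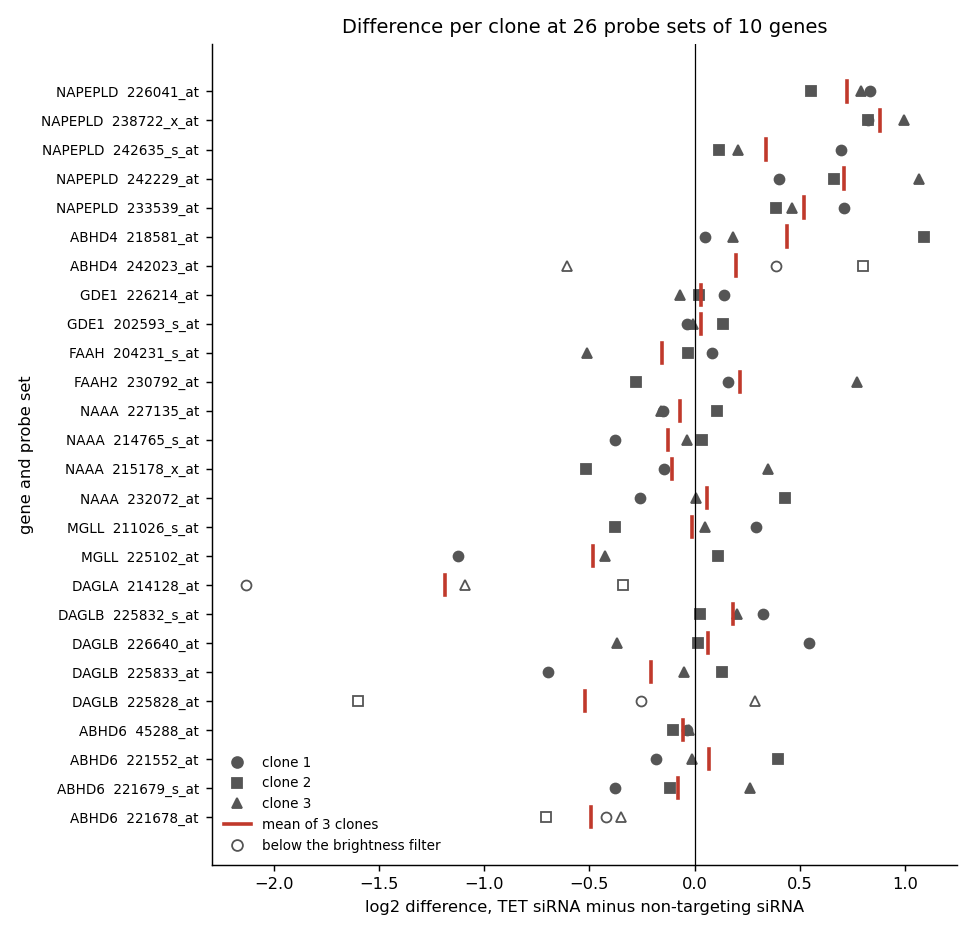
Log2 difference in signal, TET siRNA minus non-targeting siRNA (horizontal), for each of the 26 probe sets, with a marker for each clone and a red bar at the mean of 3 clones; open markers lie below the brightness limit. All 15 NAPEPLD markers lie right of 0, while the 3 clones lie on both sides of 0 for most probe sets of the other genes, and the widest spreads are at dim probe sets.

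The precision of these values followed brightness. With the tested probe sets split by signal into 4 classes of equal size, the median within-group SD of log2 signal was 0.34 in the dimmest class (signals of 117 to 281), which held 8 of the 22 members. It was 0.12 in the brightest class (signals from 2720.3), which held the 2 of GDE1. The classes between held 7 members at a median SD of 0.23 and 5 at 0.17.

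**Figure D4:**
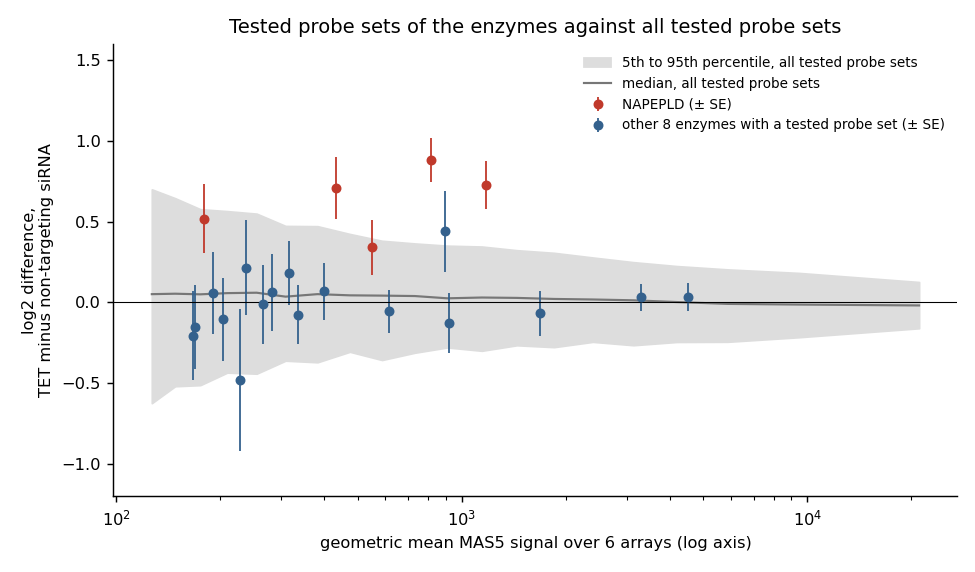
Log2 difference, TET siRNA minus non-targeting siRNA (vertical), against the geometric mean signal over 6 arrays (horizontal, log axis) for the 22 tested member probe sets with their SE; the grey band spans the 5th to 95th percentile and the grey line the median of all tested probe sets in 20 bins of brightness. NAPEPLD points at log2 differences of 0.71, 0.73 and 0.88 lie above the band, and those at 0.34 and 0.52 lie within it. NAPEPLD was selected on this comparison, so nothing is read from its place against the band. Of the other genes, ABHD4 at 0.44 lies above the band and MGLL at -0.48 just below it.

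Differences between the 3 clones were tested for the enzymes other than NAPEPLD, since the p by which NAPEPLD was selected is smaller where its clones differ less. In limma's moderated F test of the clone terms with treatment in the model, 8.27% of all tested probe sets had an adjusted p under 0.05 and 0 of the 17 tested probe sets of these enzymes did. At an unadjusted p under 0.05 there were 3 of 17, against 23.7% of all tested probe sets. These were 225102_at of MGLL (limma adjusted p = 0.0566) and 214765_s_at and 227135_at of NAAA (limma adjusted p 0.138 and 0.189). At all 3 of these the clone 1 arrays were the lowest of their groups. The MGLL probe set passed this test when either clone 2 array was left out, and ABHD4 without the clone 2 array under non-targeting siRNA. More of all tested probe sets passed in those fits than with all arrays. Those fits leave clone 2 with 1 array, so nothing is read from them.

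Of the wider pathway, 32 other genes were listed by role, 28 had a probe set of their own and 14 were bright enough to be tested. In limma without a clone term 0 of the 14 passed, against 0.0146% of all tested probe sets, and 1 had an unadjusted p under 0.05, against 6.61%. With the replicate block 0 of the 14 passed in limma, against 1.03% of all tested probe sets in either direction. Their median difference was 0.02, with 10 positive and 4 negative. The PLAAT acyltransferases, which move acyl chains between phospholipids and can form the N-acylated precursor, had 2 tested members, PLAAT1 at -0.06 (SE 0.13) and PLAAT3 at 0.01 (SE 0.14), while PLAAT2, PLAAT4 and PLAAT5 were too dim. Of 5 tested genes on other routes to these lipids, GDPD3, a lysophospholipase D, had 0.32 (SE 0.28) and PLCG1, a phospholipase C, 0.12 (SE 0.14). The other hydrolases and oxygenases had 2 tested members, ABHD2 at 0.15 (SE 0.13) and ABHD12, a lysophospholipid lipase that also hydrolyses 2-arachidonoylglycerol, at -0.03 (SE 0.18).

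Among proposed carriers only FABP5, a fatty acid-binding protein, was bright enough. Its signal was 13866, 16178 and 14244 in clones 1, 2 and 3 under TET siRNA, against 13028, 11805 and 12746 under non-targeting siRNA, which do not overlap. The log2 difference was 0.23 (SE 0.09, limma adjusted p = 0.695, and 0.210 with the replicate block). The cannabinoid receptor gene CNR1 lay below the brightness limit at its brightest probe set (49.1 to 73.8 under TET siRNA and 40.9 to 83.3 under non-targeting siRNA). CNR2 was only just above it, with 121, 120.4 and 101 under TET siRNA and 147, 237 and 142 under non-targeting siRNA. The CNR2 groups did not overlap either, with TET siRNA lower. In either direction, the groups did not overlap at 3471 of all 27306 tested probe sets. CNR2 differed by -0.59 (SE 0.29, limma adjusted p = 0.785) and CNRIP1, which encodes a CNR1-interacting protein, by 0.22 (SE 0.15, limma adjusted p = 0.852). PPARA, a nuclear receptor activated by N-acylethanolamines, differed by -0.14 (SE 0.27) between treatments. It was the only 1 of the 14 past the threshold between clones (limma F test adjusted p = 0.0091), where 8.27% of all tested probe sets passed, with 548 and 564 in clone 1 against 952 and 1084 in clone 2 under TET siRNA and non-targeting siRNA in that order.

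The genes whose log2 signal followed the brightest NAPEPLD probe set most closely over the 6 arrays, by Pearson's r among 12318 genes, were ZBTB37 (0.996), CREBZF (0.995), ZBTB18 (0.994), CFAP184 (0.993) and ZBTB4 (0.993). They were picked for this likeness from many genes on only 6 arrays, which share clones, treatment and scaling, so r is a description. CREBZF had 5628, 4424 and 4838 in clones 1, 2 and 3 under TET siRNA, against 3770.1, 3297 and 3092 under non-targeting siRNA. As at 226041_at, clone 1 was the highest of each group and the groups did not overlap, with TET siRNA higher, as at 7.21% of all tested probe sets. CREBZF was picked for its likeness to that probe set, so nothing is read from this. The log2 differences of the 5 genes were 0.36 to 0.55, smaller than the 0.73 of NAPEPLD.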

How the data were processed

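The authors deposited 1 linear signal intensity per probe set and array, made with MAS5 (version not stated) per the submitters' processing notes. These intensities share a mean of 1000.1 after the top and bottom 2% are trimmed, so they were used as they stood, on the log2 scale. Symbols come from the platform annotation, updated by Entrez ID through RefSeq (GRCh38.p14), which is also the source of promoter sequences. The brighter 50% of 54613 probe sets (62 controls left out) were tested in limma 3.58.1 (R 4.3.3) with trended, robust empirical Bayes, two-sided, with Benjamini-Hochberg adjustment over all 27306. Errors after ± are SDs over 3 arrays. SEs and 95% intervals come from that fit without a clone term, so they do not use the pairing. For members below the limit they come from a like fit of all probe sets. Adjusted p-values, SEs and intervals rest on the spread of 3 arrays per group, which limma moderates toward the spread of other probe sets of like brightness. With the replicate block, the spread used is that left after clone differences.

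The members, lists and tests were chosen with earlier results of these data known. The rule for named genes took every member at every probe set, the TET genes at their brightest, each pathway list's passing genes or else the 2 of smallest p, and the 5 genes most like NAPEPLD. The numbers pair arrays because the labels give them as the clone; measured from the mean of their group, the 2 arrays of a clone correlated at 0.493, 0.234 and 0.236 for clones 1, 2 and 3, and clone 2 under TET siRNA with clone 3 under non-targeting siRNA at 0.219. Steps were tested on simulated data. Alternatives were the replicate block, other brightness limits, a pseudocount, quantile normalization, plain empirical Bayes and arrays or clones left out. Plots were drawn with matplotlib 3.10.9.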

Additional observations from a re-analysis of the deposited data

How the results depend on the processing

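The count of member probe sets past the threshold was 0 of 22 and became 2 with the replicate block. It was 0 to 1 with arrays or clones left out, the 1 being 238722_x_at of NAPEPLD without clone 1 in both groups. Over all 27306 tested probe sets, that fit called 131. The fits without clone 2 or clone 3 in both groups called 0, and those without a single array 2 to 4. The member count stayed at 0 with no filter, the upper 30%, the pseudocount, quantile normalization or plain empirical Bayes. Those fits called 1 to 14 of all tested probe sets. The blocked count of 2 became 1 when dim probe sets were kept and 1 to 2 with a clone left out, 238722_x_at being the probe set kept each time. Over all tested probe sets these fits called 70 of 54613 and 64 to 769 of 27306, in that order. These blocked alternatives were added after the data had been seen. With plain empirical Bayes the blocked count was 0 of 22, and 0 of all 27306 tested probe sets. The count of member probe sets differing between clones was 0. It moved only in fits without a clone 2 array, which leave that clone with 1 array, so their calls are not read. Over all probe sets the blocked fit called 282 and the fit without the clone 4. All 5 NAPEPLD probe sets stayed above 0 in every alternative, between 0.16 and 0.96, while up to 7 of the 26 member probe sets changed sign with an array or clone left out. With the upper 30% of probe sets only 9 members remained in the test. The pathway count stayed at 0 throughout. TET1 missed the threshold with plain empirical Bayes (limma adjusted p = 0.0548) and without clone 2 or clone 3 in both groups. TET2 and TET3 passed with the replicate block (0.0047 and 0.0021), and TET3 also with the upper 30% and without clone 1. The causes of these shifts were not tested. Signal over background could not be judged, since detection calls were not used here.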

Other observations

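The protein-coding genes that lie nearest to NAPEPLD in the order of the RefSeq table (GRCh38.p14), up to 2 on each side, included 3 with a probe set of their own. ARMC10, the next gene on one side, had 4752, 5561 and 5438 in clones 1, 2 and 3 under TET siRNA, against 4690.4, 5518 and 5813 under non-targeting siRNA, a log2 difference of -0.02 (SE 0.11). LRRC17, beyond it, differed by 0.10 (SE 0.21). On the other side, the adjacent gene had no probe set of its own. PMPCB, 2 places away there, had 18098, 20771 and 20951 under TET siRNA and 19750.3, 22681 and 23036 under non-targeting siRNA. Its log2 difference was -0.13 (SE 0.09) with every clone lower, as at 15.7% of all tested probe sets. These neighbours were looked up after the NAPEPLD values had been seen.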
